A study of Mus musculus with 8 samples.

Results

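Conventional CD4 T cells are the helper arm of the T-cell response: they carry the coreceptor CD4, recognise peptides on MHC class II, and act on other cells through surface ligands and cytokines. CD40 ligand on these cells licenses dendritic cells and B cells, interleukin 21 sustains B cells and CD8 T cells, and the kinds of helper cell are usually told apart by the cytokines they make. They differ from regulatory T cells, which also carry CD4 but depend on the transcription factor Foxp3 and restrain responses. In tumours both kinds are found beside CD8 T cells, the main cytotoxic class.

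Hepa1-6, a hepatoma line of the mouse, was grown as tumours, which were dissociated and measured cell by cell with droplet capture and sequencing of the 3′ ends of transcripts. The labels give 8 entries in 4 groups: unedited (WT) tumours with intraperitoneal PBS, WT tumours with intraperitoneal PD1 antibody, and Soat1-edited tumours with each of these injections. Each group has a cDNA and an oligo entry, counted as 1 sample. Titles call the edited tumours KO and the genotype field calls them Soat1 knockdown. The strain, age and number of host animals, and whether the edited line was 1 clone, are not given in the sources used here. Soat1 itself was not analysed here.

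The deposited table pools 53528 cells, and the last number of each cell name divides them into 6 sets. Nothing ties the sets to the 4 groups, so no comparison of genotype or treatment could be made, no p-value is given, and the sets are described as unassigned samples. Members were selected on measured values: a cell was counted as a conventional CD4 T cell when its value was at least 1 for Cd4, its mean over Cd3d, Cd3g and Trbc2 was at least 0.8, its mean over Cd8a and Cd8b1 was below 0.3, its Foxp3 value was below 0.5 and its mean over C1qa and C1qb was below 0.8. This gave 680 of 53528 cells. The comparison class was all other T cells with the same T-cell and C1q limits, 12270 cells, of which 11023 were CD8 T cells, 307 were regulatory T cells and 940 were remaining T cells. A comparison with all other T cells is therefore mostly one with CD8 T cells, and regulatory T cells were compared separately. These 9 genes chose the cells, so their values are description only, and the given markers Icos, Penk, Tnfsf11 and Tnfsf8 were picked with earlier results of these data known.

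Conventional CD4 T cells made up 5.25% of the 12950 T cells (95% Clopper-Pearson interval 4.87 to 5.65) and 1.27% of all cells. In sets 1 to 6 they numbered 56, 73, 132, 184, 121 and 114. Their respective shares of T cells were 4.27%, 4.23%, 5.45%, 6.92%, 7.10% and 3.64%. Sets 4 and 5 were high, and their intervals did not overlap those of sets 1, 2 and 6. For each regulatory T cell there were 1.51 to 2.87 conventional CD4 T cells, with a median of 2.23 over the sets. Intervals and floors here and below cover counting error only.

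**Figure D1:**
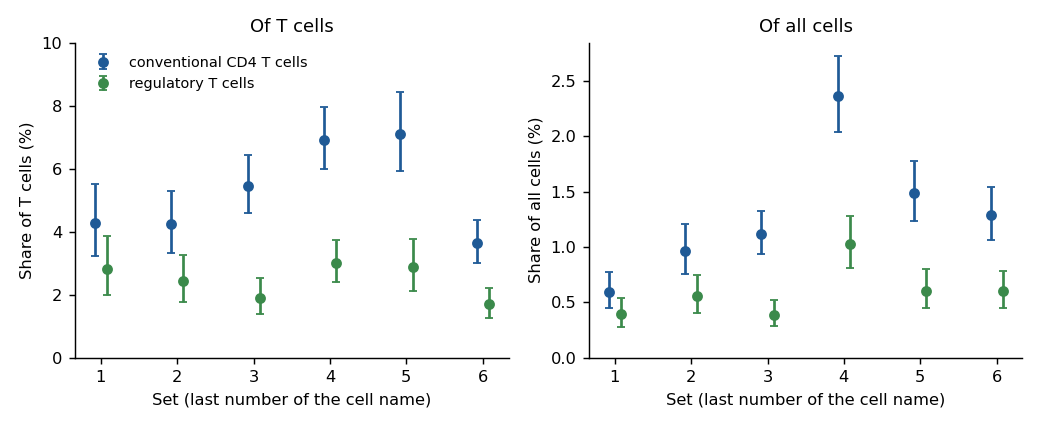
Share of conventional CD4 (blue) and regulatory (green) T cells in each of the 6 sets, as a percentage of T cells (left) and of all cells (right). Points are counted shares and bars are 95% Clopper-Pearson intervals. The blue points lie above the green ones in every set, and in the left panel they are highest in sets 4 and 5, at 6.92% and 7.10%.

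Only in set 1 could whole UMIs (counted RNA molecules) be recovered from the values. There the median depth was 3206 UMIs over 56 conventional CD4 T cells, 4875 over 1235 other T cells and 4576 over 37 regulatory T cells. Levels in set 1 are UMIs of a gene per 1000000 UMIs of the class (CPM), over genes that together hold 15.03% of the set's UMIs. In sets 2 to 6 an unrecorded step had altered the values, 22.9% to 33.4% of which are below 0, so across sets only differences of mean deposited values, on a natural log scale, and the share of cells with a value of at least 1 are given. Such a value stands for at least 1.72 UMIs per 10000 in set 1, which a single UMI reaches only in a cell with fewer than 5820 UMIs. The shares below therefore move with depth, and 17 of the 56 cells of set 1 entered the class on a single Cd4 UMI.

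Cd4, Cd8a and Foxp3 chose the cells, so their levels are description and do not check the label. In set 1 Cd4 stood at 562 CPM in the class, 16.3 CPM in other T cells and 237 CPM in regulatory T cells. Cd8a had 0 UMIs and Foxp3 had 1 UMI in the class. The label was checked against markers of other cells that are outside the rule. Of 9 natural killer cell markers, Ncr1, Klrb1c, Klra1, Klra4, Klra7 and Klra8 were at 0 UMIs. The 9 held 78.4 CPM in the class and 605 CPM in other T cells. Their summed mean values were 0.367 to 0.595 over the sets, against 1.32 to 1.72. Also at 0 UMIs were 4 of 5 gamma-delta T-cell, 5 of 7 B and plasma cell, 5 of 7 neutrophil and 5 of 11 dendritic cell markers. The 11 dendritic markers held 206 CPM in the class and 292 CPM in other T cells. Of 5 with enough UMIs, 1 was at least 2-fold higher and 2 at least 2-fold lower, against 9.53% and 22.3% of all genes. Of 9 macrophage markers, C1qc, Mrc1 and Ms4a7 were at 0, while Apoe and Ctsb, which other cells also make, stood at 392 and 265 CPM. The 9 together held 745 CPM in the class and 758 CPM in other T cells, and their summed mean values were 2.49 to 2.88 and 2.46 to 2.70 over the sets. The summed mean values of 11 hepatoma genes were 5.47 to 6.25 over the sets in the class and 5.76 to 6.25 in other T cells. Afp, the fetal liver protein alpha-fetoprotein, was at 529 CPM in the class, 498 CPM in other T cells and 5031 CPM in hepatoma-type cells, a ratio between the T-cell classes of 1.06 (0.902 to 1.24). The part of tumour-cell RNA in the results was not tested.

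Helper ligands and helper cytokines were higher in the class than in other T cells. Of 8 such genes in the table, 6 were at least 2-fold higher than in other T cells in set 1 and none was at least 2-fold lower, against 9.53% of 1112 genes that were higher and 22.3% that were lower. Their mean value was higher in all 6 sets for 7 of 8, against 14.4% of genes. Over the list the log2 ratio had a median of 3.12, beside -0.14 over all genes counted, and it was 1.90 with every cell thinned to 1000 UMIs. The list includes the given markers Tnfsf8 and Tnfsf11, picked with earlier results known, so these counts are description only.

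Cd40lg, which encodes CD40 ligand, was found in few cells of the class and fewer of the other T cells. In set 1 it had 16 UMIs in 13 of 56 cells (52.3 CPM) and 12 UMIs in the 1235 other T cells (1.48 CPM), a ratio of 35.4 (interval 15.7 to 82.0), while regulatory T cells had 0 UMIs. Over all sets 14.6% of the class had a Cd40lg value of at least 1, with a lowest set of 10.6%, a median of 14.8% and a highest of 19.6%. In other T cells the share was 0.619%, from 0.318% to 1.01% by set, so the ranges did not overlap. Among hepatoma-type cells of set 1, which should lack the gene, 0.130% held a Cd40lg UMI, at a median of 14622 UMIs per cell.

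Tnfsf8, the CD30 ligand, stood at 163 CPM in the class, 10.96 CPM in other T cells and 34.5 CPM in regulatory T cells. Its share of cells was 15.2% in the lowest set, 21.9% at the median and 24.7% in the highest, against 1.56% to 3.22% in other T cells. Tnfsf11, the cytokine RANKL, stood at 376 CPM, against 55.6 CPM in other T cells (ratio 6.75, interval 5.45 to 8.31) and 47.4 CPM in regulatory T cells. It was found in 36.99% to 44.0% of the class by set and in 9.02% to 12.3% of other T cells. For all 3 ligands every set of the class lay above every set of other T cells.

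Il21, a helper cytokine for B and CD8 T cells, had a ratio of 45.8 to other T cells (interval 26.4 to 81.4). Its 38 UMIs came from 7 cells, and 1 cell held 18 of them. Over the sets, 8.22% to 14.7% of the class and 0.239% to 1.17% of other T cells had a value of at least 1. Csf2, which encodes GM-CSF, stood at 91.5 CPM in the class and 7.14 CPM in other T cells, and was found in 10.0% and 1.09% of cells. In set 1 the 28 Csf2 UMIs of the class lay in 5 cells, 11 of them in 1 cell. Lta, lymphotoxin alpha, was 3.51 times its level in other T cells (interval 1.54 to 7.07). Ltb, lymphotoxin beta, and Tnfsf4, the OX40 ligand, had intervals that included 1.

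Penk, which encodes the opioid precursor proenkephalin, was among the 15 genes with the highest ratio to other T cells. It stood at 637 CPM (551 to 733), against 53.3 CPM in other T cells and 38.8 CPM in regulatory T cells. The 195 UMIs lay in 16 of 56 cells, at most 37 in a cell, so most cells of the class had none. By set, 28.6% to 38.4% of the class had a value of at least 1, against 5.73% to 8.29% of other T cells and 8.11% to 22.4% of regulatory T cells. The class lay above both in every set.

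Because depth differed, shares of cells with a UMI in set 1 were also taken after thinning each cell to 1000 UMIs, which left out no cell. Tnfsf11 was then found in 14 of 56 cells of the class and 3.97% of other T cells, against 41.1% and 15.95% before thinning. Penk was found in 21.4% and 3.24%, against 28.6% and 7.77%, and Icos in 41.1% and 19.7%, against 42 of 56 cells and 52.6%. Gzmb was found in 8.93% of the class, against 26.8% before thinning, and in 494 of 1235 other T cells, against 62.9%, and Klrd1 in 19.6% of the class and 39.2% of other T cells. The order of the classes for these 5 genes was the same at equal depth. Among hepatoma-type cells 0.037% held a thinned Tnfsf11 UMI and 0.148% a thinned Penk UMI.

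**Figure D2:**
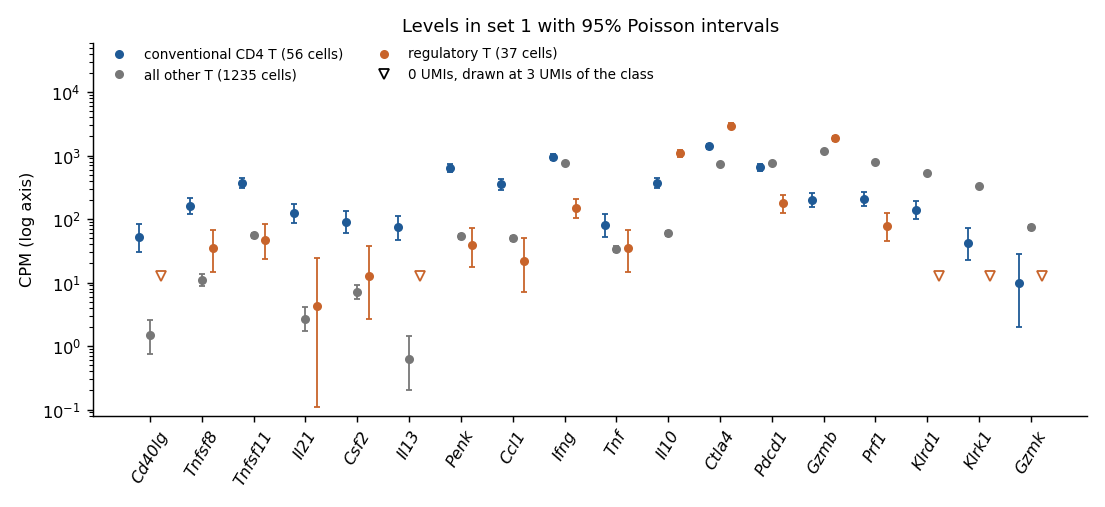
Levels in set 1 of 18 genes in conventional CD4 T cells (blue), all other T cells (grey) and regulatory T cells (orange), in CPM on a log axis with 95% Poisson intervals. Open triangles mark 0 UMIs and are drawn at the level of 3 UMIs of that class. The blue points are highest for the helper ligands and Penk, and the grey or orange points are highest for Gzmb, Prf1 and Klrd1.

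Icos, Tnfrsf4 and Tnfrsf18, 3 costimulatory receptors, were higher than in other T cells and lower than in regulatory T cells. Icos, the inducible costimulator, stood at 536 CPM in the class, 219 CPM in other T cells and 827 CPM in regulatory T cells. A value of at least 1 was seen in 65.8% to 72.7% of the class by set, in 35.9% to 39.6% of other T cells and in 76.1% to 92.5% of regulatory T cells, so the class lay between them with no overlap. Tnfrsf4, which encodes OX40, and Tnfrsf18, which encodes GITR, were ordered in the same way, at 294 and 431 CPM in the class, 98.2 and 188 CPM in other T cells, and 512 and 741 CPM in regulatory T cells. Of 12 costimulatory genes, 3 were at least 2-fold higher and 1 was at least 2-fold lower than in other T cells, against 9.53% and 22.3% of all genes, and 4 were higher and 3 were lower in all 6 sets, against 14.4% and 25.4%. The gene lower by 2-fold was Cd226, an adhesion receptor of cytotoxic cells, at 71.9 against 152 CPM.

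Cytokines of several helper types were present, while those of Th17 cells were at 0 UMIs. Ifng, the interferon gamma gene of Th1 cells, was abundant, at 951 CPM (845 to 1067), against 776 CPM in other T cells and 151 CPM in regulatory T cells. The mean Ifng value was above that of other T cells in 3 of 6 sets and above that of regulatory T cells in all 6. Tnf was higher than in other T cells in all 6 sets, with 81.7 against 33.9 CPM. Tbx21, the Th1 transcription factor, was lower than in other T cells in all 6 sets, at 134 against 216 CPM. Of 5 Th1 genes, only Tnf was at least 2-fold higher, against 9.53% of all genes. None of the 5 was at least 2-fold lower, against 22.3%.

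Of 4 Th2 genes with enough UMIs, 3 were at least 2-fold higher, against 9.53% of all genes, and 3 had a higher mean in all 6 sets, against 14.4%. None was lower by either measure, and Il5, a Th2 cytokine, had 0 UMIs in the class and 1 in other T cells. Gata3, the Th2 transcription factor, stood at 157 CPM in the class and 61.1 CPM in other T cells, a ratio of 2.57 (1.87 to 3.46). Il13 had 23 UMIs in 3 cells, 18 of them in 1 cell, against 5 UMIs in 1235 other T cells. It reached the minimum of 20 UMIs only through the class, so its place among the higher Th2 genes is description only. Over all sets 22 cells of the class (3.24%) had an Il13 value of at least 1, against 0.179% of other T cells. Areg, the growth factor amphiregulin, had 135 UMIs, of which 76 lay in 1 cell. Its log2 ratio to other T cells was 4.14, and 2.98 without that cell, and hepatoma-type cells held 63.5 CPM of it. Its level in set 1 was 441 CPM in the class and 189 CPM in regulatory T cells. By set, 8.26% to 20.5% of the class had an Areg value of at least 1, against 26.2% to 43.8% of regulatory T cells. Against regulatory T cells 2 of 4 Th2 genes were at least 2-fold higher and 1 at least 2-fold lower, against 11% and 13.6%. In all 6 sets 1 was higher and 1 lower, against 18.3% and 28.7%. Il13 was among the higher genes by both measures and again had enough UMIs only through the class. Il4 had 9 UMIs in 3 cells. The Th17 genes Il17a, Il22, Ccr6 and Ccl20 had no UMI in the class, which allows up to 9.80 CPM at 3 UMIs. All 4 together held 2.83 CPM in other T cells and 0 UMIs in regulatory T cells. These zeros therefore do not set the class apart from other T cells. Over the 4 genes the median difference of mean values to other T cells was 0.0012.

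Follicular helper genes were mostly higher than in other T cells, with 5 of 7 at least 2-fold higher, against 9.53% of all genes, and 6 of 7 higher in all 6 sets, against 14.4%. Against regulatory T cells 2 of 7 were at least 2-fold higher and 3 at least 2-fold lower, against 11% and 13.6% of genes. Maf, a transcription factor that drives Il21 and Il10, stood at 402 CPM against 67.3 CPM in other T cells (ratio 5.97, 4.87 to 7.27) and 952 CPM in regulatory T cells. Hepatoma-type cells held 41.0 CPM of Maf. Izumo1r, the folate receptor 4 gene, was ordered in the same way at 94.8, 24.4 and 254 CPM. Cd200 and Btla, an inhibitory ligand and an inhibitory receptor, were 2.94 times (1.93 to 4.32) and 3.66 times (2.03 to 6.20) their levels in other T cells. Rgs16, a regulator of G-protein signalling, was the exception at 562 against 1103 CPM, lower in all 6 sets.

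Receptors of resting T cells were found in a minority. Il7r, the interleukin 7 receptor, was present in 25.9% of the class and 12.5% of other T cells, and Ccr7, the lymph node homing receptor, in 6.18% and 3.41%. The median log2 ratio of 6 such genes to other T cells was 0.56. It was -0.22 when each gene's richest cell was left out, 1.4997 with each cell thinned to 1000 UMIs, 1.28 as a mean over cells and 1.36 with Foxp3, Il2ra and Ikzf2 all below 0.5.

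Cytotoxic genes were lower than in other T cells. Of 16 such genes, 12 were at least 2-fold lower and none was at least 2-fold higher, against 22.3% and 9.53% of all genes. Of the 16, 11 had a lower mean in all 6 sets, against 25.4% of all genes. The median log2 ratio was -1.82, beside -0.14 over all genes, and -1.71 with the genes at 0 UMIs placed at their bound. Thinned to 1000 UMIs per cell it was -1.15. Against regulatory T cells, 5 of 8 with enough UMIs were at least 2-fold higher and 2 at least 2-fold lower, against 11% and 13.6%. In all 6 sets 2 were higher and 2 lower, against 18.3% and 28.7%. Gzmb, granzyme B, stood at 203 CPM, against 1193 CPM in other T cells and 1882 CPM in regulatory T cells, and was found in 10.7% to 21.2% of the class by set, against 50.04% to 58.2% and 45.0% to 64.9%. Prf1, perforin, stood at 206 against 797 CPM, and 35 of its 63 UMIs in the class lay in 1 cell. Gzma had 2 UMIs, which put other T cells 26.7 times higher (7.39 to 221).

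Klrd1, Klrc1 and Klrk1, receptors shared with natural killer cells, were lower than in other T cells in all 6 sets and higher than in regulatory T cells in all 6. Klrd1, the CD94 subunit, stood at 141 CPM in the class, 524 CPM in other T cells and 0 UMIs in regulatory T cells, so its level was at least 10.9-fold higher than in the latter. Its share of cells by set was 26.8% to 42.9% in the class, 64.9% to 72.3% in other T cells and 0 to 8.70% in regulatory T cells. Klrc1, its partner NKG2A, stood at 144, 464 and 8.61 CPM. Klrk1, which encodes NKG2D, was 7.71 times higher in other T cells (4.502 to 14.5). Cd160, an inhibitory receptor of cytotoxic cells, and Tcrg-C2, a constant segment of the gamma chain, had 0 UMIs in the class and were at least 9.24-fold and 14.4-fold lower than in other T cells.

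Checkpoint genes differed in direction. Ctla4 stood at 1399 CPM in the class, 739 CPM in other T cells and 2976 CPM in regulatory T cells. Pdcd1, which encodes PD-1, was near the level of other T cells at 650 against 751 CPM (ratio 0.866, 0.748 to 0.998) and 3.68 times that of regulatory T cells (2.62 to 5.29). Its mean was below that of other T cells in all 6 sets, but its log2 ratio in set 1 was 0.21 when the Cd4 limit was set at 1.5. Tox, a transcription factor of chronically stimulated T cells, was 0.759 times its level in other T cells (0.590 to 0.963), and its log2 ratio was 0.12 with that Cd4 limit. Havcr2, which encodes TIM-3, had a ratio of 0.998 (0.760 to 1.29).

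Chemokines divided into higher and lower genes. Ccl1, a ligand of CCR8, stood at 353 CPM against 49.6 CPM in other T cells and 21.5 CPM in regulatory T cells, and was found in 20.2% to 28.6% of the class and 4.70% to 7.33% of other T cells by set. Cxcl10, an interferon-induced ligand of CXCR3, was 4.78 times its level in other T cells (3.89 to 5.83) and was at 187 CPM in hepatoma-type cells. Ccl5, made by cytotoxic cells, was lower in all 6 sets, at 464 against 1250 CPM. Ccl3 and Ccl4 also had lower means in all 6 sets, with set 1 ratios of 0.718 and 0.907, and the log2 ratio of Ccl3 was 0.27 with the Cd4 limit at 1.5. Xcl1, a ligand for cross-presenting dendritic cells, had 26 of its 44 UMIs in 1 cell. The receptor Cxcr6 was lower than in other T cells in all 6 sets, at 337 against 664 CPM.

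Of 10 interferon-stimulated genes, 5 were at least 2-fold higher than in other T cells and 1 was at least 2-fold lower, against 9.53% and 22.3% of all genes, and 4 were higher and 1 was lower in all 6 sets, against 14.4% and 25.4%. The lower gene was Ifit3, with 0 UMIs in the class and 46 in other T cells. Isg15, a ubiquitin-like modifier, was found in 23.3% to 33.9% of the class and 14.2% to 16.8% of other T cells by set. Against regulatory T cells none of 5 counted was at least 2-fold higher and 1 was at least 2-fold lower, against 11% and 13.6%. The Isg15 ratio to regulatory T cells was 1.17 (0.751 to 1.85). All 15 cell-cycle genes had a lower mean than in other T cells in all 6 sets, against 25.4% of all genes, and none was at least 2-fold lower in set 1, against 22.3%, with a median log2 ratio of -0.58. Mki67, the proliferation antigen Ki-67, was found in 14.1% to 22.7% of the class and in 24.5% to 37.4% of other T cells. In set 1, with each cell thinned to 1000 UMIs, Mki67 was found in 8.93% of the class and 17.8% of other T cells. Of 10 early-response genes, 1 was at least 2-fold higher and 1 at least 2-fold lower than in other T cells, against 9.53% and 22.3% of all genes. In all 6 sets 0 were higher and 1 was lower, against 14.4% and 25.4%. Their median log2 ratio was -0.12, beside -0.14 over all genes counted. The gene lower in all 6 sets was Nr4a2, an orphan nuclear receptor, at 281 against 783 CPM.

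Against regulatory T cells, 11% of 491 genes were at least 2-fold higher and 13.6% at least 2-fold lower, while 18.3% were higher and 28.7% lower in all 6 sets. Of 7 regulatory genes with enough UMIs, 5 were at least 2-fold lower and 6 were lower in all 6 sets. Against all other T cells, 3 of 9 regulatory genes were at least 2-fold higher and 1 at least 2-fold lower, against 9.53% and 22.3%. In all 6 sets 4 were higher and 1 lower than in other T cells, against 14.4% and 25.4%. Their median log2 ratio to other T cells was 0.74, beside -0.14 over all genes counted. Ikzf2, the factor Helios, stood at 356 against 1150 CPM, and Il2ra, the interleukin 2 receptor alpha chain, at 144 against 306 CPM. Il1r2, a decoy receptor for interleukin 1, went the other way, at 428 CPM in the class, 164 CPM in regulatory T cells and 57.2 CPM in other T cells. Klrg1, a receptor of terminally differentiated cells, was 7.03 times higher in regulatory T cells (4.38 to 11.8), and the chemokine receptor Ccr2 was 4.54 times higher there (3.14 to 6.70).

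**Figure D3:**
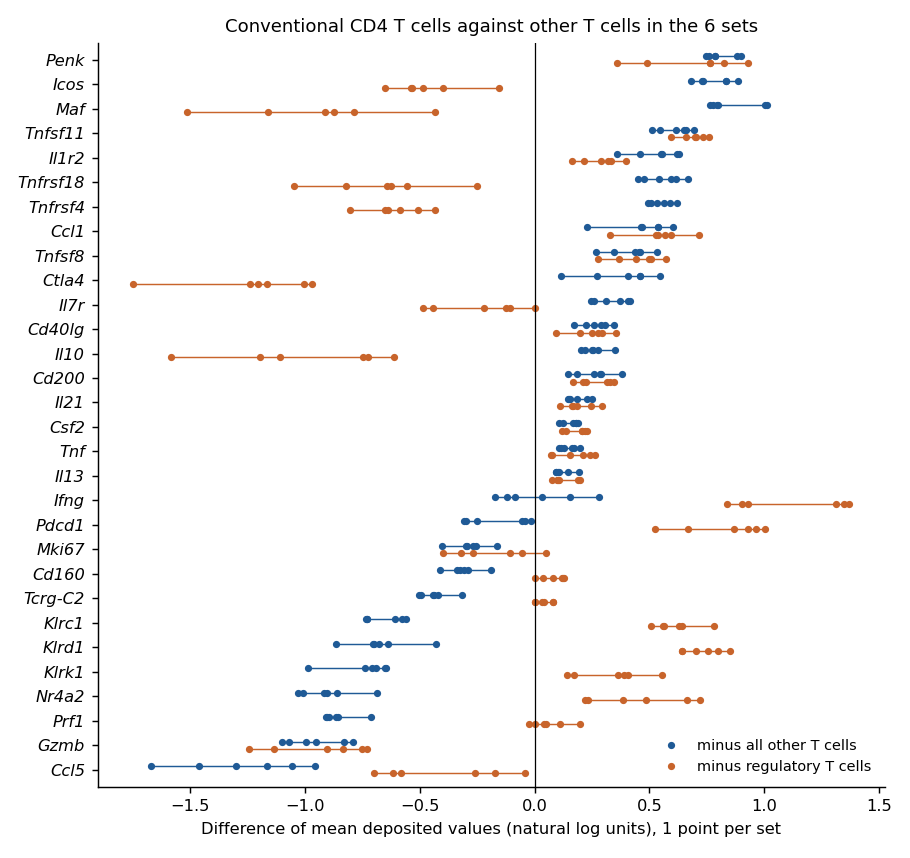
Difference of mean deposited values, in natural log units, between conventional CD4 T cells and all other T cells (blue) or regulatory T cells (orange), with 1 point for each of the 6 sets and a line from the lowest to the highest. Penk, Tnfsf11, Tnfsf8, Ccl1 and Cd40lg lie right of 0 in both comparisons in every set, Gzmb and Ccl5 lie left of 0 in both, and Icos, Maf and Ctla4 lie right of 0 in blue and left of 0 in orange.

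Among the genes of no list, Lgals7, which encodes galectin-7, and Ramp3, a coreceptor of adrenomedullin signalling, were among the 15 highest. Lgals7 was found in 13.8% of the class and 0.896% of other T cells, and 17 of its 31 UMIs in set 1 lay in 1 cell. Ramp3 stood at 91.5 CPM against 6.40 CPM, with 28 UMIs in 11 cells, and was found in 11.4% to 19.6% of the class and 1.14% to 2.63% of other T cells by set. Lif, a cytokine of the interleukin 6 family, Scin, the actin-severing protein adseverin, and Socs2, a brake on cytokine signalling, had ratios of 15.9 (9.18 to 27.1), 11.2 (6.86 to 17.8) and 8.94 (5.83 to 13.4). Among the 15 lowest were Crtam, an adhesion molecule of activated cytotoxic cells, and Itga1, the collagen receptor chain of tissue-resident cells, both at 0 UMIs and at least 4.73-fold and 5.36-fold lower. Jaml, a junctional adhesion molecule, was 16.1 times higher in other T cells (5.51 to 78.4), and Ly6c2 was 21.2 times higher (5.87 to 176).

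The cells of the class were not alike. Il10, an anti-inflammatory cytokine, had a value of at least 1 in 87 of 680 cells (12.8%), by set 8.26% to 15.2%, against 4.38% of other T cells and 46.6% of regulatory T cells. In set 1, 66 of its 115 UMIs in the class lay in 1 cell. Of the 87 Il10 cells, 86.2% also had Maf, against 41.8% of the other 593, and 95.4% against 76.6% had Ctla4. Ikzf2 was found in 58.6% against 23.8%, Izumo1r in 51.7% against 9.78%, Klrg1 in 29.9% against 3.54% and Gzmb in 44.8% against 10.5%. Each of these shares was higher in the Il10 cells in 6 of 6 sets. These splits were chosen after their values were seen.

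Tnfsf11 had the opposite pattern, being found in 8.05% of the Il10 cells and 45.4% of the rest, and its share was higher in the Il10 cells in none of the 6 sets. The 276 Tnfsf11 cells shared Penk in 43.5%, against 22.5% of the other 404 cells, Ccl1 in 40.9% against 12.6%, Tnfsf8 in 33.7% against 11.1%, Cd200 in 30.4% against 12.1% and Csf2 in 18.1% against 4.46%. All 5 shares were higher in the Tnfsf11 cells in 6 of 6 sets. Only 0.725% of the Tnfsf11 cells had Klrg1 and 3.99% had Gzmb, against 11.1% and 22.3% of the rest. Of the 99 Cd40lg cells, 42.4% had Il7r, against 23.1% of the other 581, and 1.01% had Gzmb, against 17.2%.

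**Figure D4:**
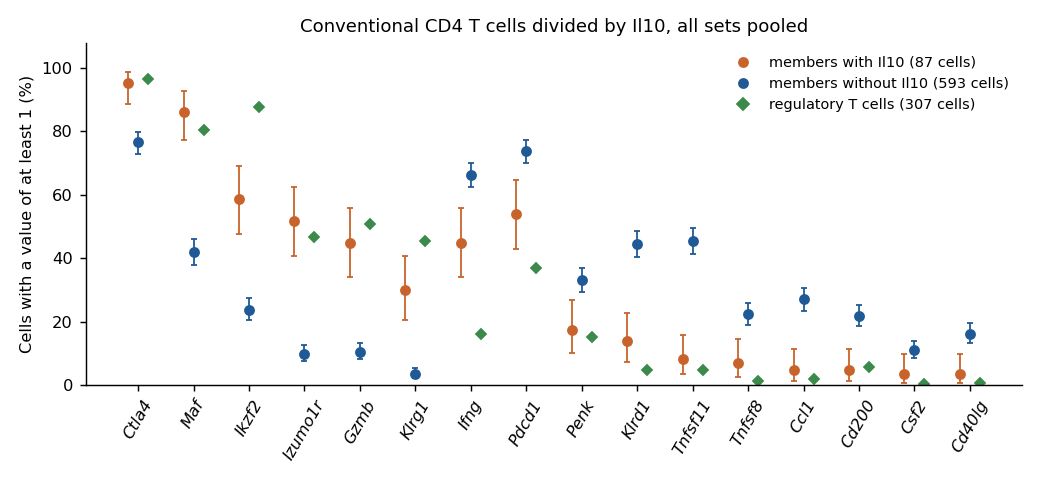
Percentage of cells with a value of at least 1 for 16 genes among the 87 conventional CD4 T cells with Il10 (orange), the 593 without (blue) and the 307 regulatory T cells (green diamonds), all sets pooled, with 95% Clopper-Pearson intervals for the first 2. The orange points lie above the blue ones for Ctla4, Maf, Ikzf2, Izumo1r, Gzmb and Klrg1 and below them for the 10 other genes.

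The Il10 cells thus held genes that regulatory T cells held too, such as Izumo1r in 46.6% and Klrg1 in 45.3% of regulatory T cells, while Foxp3 had been limited by the rule. When cells with Il2ra or Ikzf2 values of at least 0.5 were left out as well, the share of T cells in the class was 2.82%. The cells left out were then counted with the other T cells. In set 1 the log2 ratio to other T cells was -1.26 for Il10, against 2.63, and -5.23 for Klrg1, against 0.95. The size of that Klrg1 value comes from the pseudocount of 1 CPM and is not a measured fold. The helper ligand list had a median of 2.21 in that narrower class. Cells without Foxp3 and cells whose Foxp3 RNA was not captured cannot be told apart here.

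At the edge of the rule, the 60 members with Cd4 from 1 to 1.25 had mean values of 1.32 for Icos, 0.812 for Penk and 0.908 for Tnfsf11. The 47 T cells just outside, with Cd4 from 0.75 to 1 and otherwise within the rule, had 1.23, 0.543 and 1.00.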

How the data were processed

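Per the labels' protocols, tumours were dissociated and 3′ libraries were made on the DNBelab C4 platform, reads were aligned with STAR 2.7.2b, UMIs were counted with PISA and cells were chosen with barcodeRanks of DropletUtils. The protocols name GRCh38, and the submitters' processing notes list GRCh38 and mm10, while 1984 of 2000 gene symbols were found in a mouse gene name table, so the build cannot be told and coordinates are left out. The deposited values of the pooled table are on the natural log scale. How the authors went from counts to this table is not given in the sources used here. All 53528 columns belong to no known sample.

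Set 1 holds ln(1 + UMIs per 10000 of the cell). The UMI total was recovered for 100% of its 9370 cells, and 100% of nonzero values were whole within 0.01. Cell names hold running numbers, so barcodes shared between libraries could not be counted. Scrublet (scanpy 1.11.5, expected rate 6%) called 68 cells (0.726%), none in the class, which were left out of set 1 levels. It was not run on sets 2 to 6.

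Ratios are of summed UMIs per 1000000 (CPM), with conditional exact Poisson intervals at the 95% level. Log2 ratios use a pseudocount of 1 CPM. Counts of genes at 2-fold cover genes with at least 20 UMIs over both classes, without the 9 genes of the rule. Bounds against 0 UMIs use a floor of 3 UMIs over the class. Hepatoma-type cells of set 1 had a mean below 0.1 for Cd3d, Cd3g and Trbc2 and of at least 2 for Afp, Alb and Trf. Thinning kept each UMI with a probability of 1000 over the total of its cell, so 1000 UMIs per cell is an expectation. It left out no cell. The ratio was tested on simulated counts. Python 3.11.15, numpy 2.4.6, scipy 1.17.1 and matplotlib 3.10.9 were used.

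Named genes are those of the rule, the given markers, members of 23 lists, and the 15 genes with the highest and lowest ratio to other T cells, and 10 to regulatory T cells, that differ the same way in all 6 sets. Members, lists and rule were chosen with earlier results of these data known.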

Additional observations from a re-analysis of the deposited data

How the results depend on the processing

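No paired analysis was possible because the cells carry no replicate number and no group. The share of T cells in the class was 5.79% with a Cd4 limit of 0.5, 3.92% with 1.5, 2.39% with a Cd8a and Cd8b1 mean of at most 0, 3.42% with Foxp3 at most 0, 2.82% with Foxp3, Il2ra and Ikzf2 all below 0.5, and 1.27% with all cells as the denominator. The 106 genes at least 2-fold higher became 64 with a pseudocount of 10 CPM, 209 with no minimum of UMIs and 60 without each gene's richest cell. The 248 lower genes became 74, 398 and 432 under those settings, 449 with the 3 regulatory genes limited, 165 with at least 50 UMIs, and 81 when the interval had to leave out 1. The helper ligand median of 3.12 became 1.90 with thinning, 2.50 with a pseudocount of 10 CPM, 2.21 with the 3 genes limited, 2.69 without the richest cell, and 0.17 as a difference of deposited values. The cytotoxic median of -1.82 became -1.15 with thinning, -2.61 without the richest cell and -0.22 as a difference. Signs turned, with a Cd4 limit of 1.5, for Ccl3 (0.27), Pdcd1 (0.21), Tox (0.12) and the checkpoint list median (0.21). With the 3 genes limited, they turned for Ccl3 (0.46), Tox (0.32), Il10 (-1.26), Klrg1 (-5.23), the regulatory list median (-1.50), and, by construction, Ikzf2 (-7.80) and Il2ra (-6.19). The size of the Klrg1 value comes from the pseudocount, and the cells left out were counted with the other T cells. Ckap2l was 0.069 with thinning and Serpinb9b 0.45 as a mean over cells. Elsewhere the cause was not tested. Of 1558 gene values under these settings, 1305 stayed within the counting interval, 242 moved outside it and 11 turned sign. A change of sign, here and in the sentences above, was counted only where the main interval left out 1. The richest-cell and interval settings were chosen after seeing the data. With 56 cells and 305992 UMIs in set 1, a gene with 0 UMIs in the class may still stand at up to 9.80 CPM, and a ratio from 1 to 3 UMIs is only as firm as its interval.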

Other observations

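Some of the 22 cells with Il13 stood apart within the class. Il7r was found in 68.2% of them, against 24.5% of the other 658 cells, and Il1r2 in 68.2% against 37.7%, each higher in 6 of 6 sets, while Izumo1r was found in none of the 22, where up to 15.4% is allowed by the interval. Il13 cells were 0.826% to 5.30% of the class by set, so some sets held very few of the 22. Here, as in the splits above, the pairs of genes were chosen after their values were seen. Gzmb cells of the class, 101 in number, had Il10 in 38.6%, against 8.29% of the other 579, and Ikzf2 in 53.5% against 23.8%. Ifng cells had Pdcd1 in 79.2%, against 57.7% of cells without Ifng, and Klrd1 in 47.7% against 27.8%, each higher in 6 of 6 sets. Igfbp7, a secreted binding protein for insulin-like growth factors, was found in 21.3% of the class, 3.64% of other T cells and 2.28% of regulatory T cells. Among T cells within the Cd8a, Cd8b1 and Foxp3 limits of the rule, 800 had Cd4 below 0.25. Their mean values were 0.693 for Icos and 0.298 for Penk, against 1.46 and 0.947 in the class. In set 1 their median depth was 1968 UMIs, against 3206 in the class, and the part of depth in these differences was not tested.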
